A study of Mus musculus with 5 samples.

Results

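The genes described here mostly code for enzymes and subunits that modify or move nucleosomes. They were taken as the autosomal protein-coding records of GENCODE vM1, on the mm9 assembly, whose symbols begin with Setd (Setd2 to Setd9), Kdm (Kdm1 and Kdm3 to Kdm8), Hdac, Kat (Kat2 to Kat8), Smarc, Chd or Arid. The Setd1 and Kdm2 genes were left out by rule. The rule found 64 records with 63 symbols among 21410 autosomal protein-coding records: 7 Setd, 11 Kdm, 10 Hdac, 3 Kat, 12 Smarc, 11 Chd and 10 Arid records. Hdac4 has 2 records, of which the shorter, 2.39 kb long, had no listed window. The rule also took in Chdh, which codes for choline dehydrogenase, a mitochondrial enzyme of choline metabolism and no chromatin protein. Most of the remaining symbols name histone lysine methyltransferases or related SET-domain proteins, lysine demethylases, deacetylases, acetyltransferases, and subunits or relatives of ATP-dependent remodelling complexes. Some Arid genes fall outside these classes, such as Arid5b, which codes for a DNA-binding protein.

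The study mapped Cxxc1 and histone H3 trimethylated on lysine 4 (H3K4me3) by ChIP-seq in CD4+CD8+ double-positive (DP) thymocytes, from WT mice and from mice lacking Cxxc1. The deficient mice carried Cxxc1 fl/fl alleles deleted by hCD2-Cre, which is active in lymphoid cells from early stages, and the WT mice carried no such deletion. Per the study's methods the mice were a few weeks old, and how many were pooled for a library is not given in the sources used here. The sample titles call the deficient libraries KO, whereas their genotype label reads Cxxc1+/-, and the titles were followed. There was 1 library per group, so differences between genotypes could not be set against a spread of replicates, and p-values are not given.

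Cxxc1 (CXXC finger protein 1, also called Cfp1) binds unmethylated CpG dinucleotides through its CXXC domain and is a subunit of the Setd1 complexes, which methylate H3K4. H3K4me3 typically marks the start sites of active genes, most of which lie in CpG-rich DNA. Many of the enzymes described here write, erase or read other histone marks, and BAF, ISWI and CHD remodellers slide or evict nucleosomes with the energy of ATP. Thymocytes use several of them during development, among them the class IIa deacetylase Hdac7 and the BAF ATPase Smarca4 (BRG1).

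The deposited lists hold 200-bp windows inside called regions, each with its tags per 1000000 mapped tags (RPM). A level below is the sum of these RPM values over the windows of a gene's promoter, meaning 1 kb to either side of a transcription start site (TSS), or of its body, meaning the rest of the gene. A place without a listed window has no value, which is not a value of 0. The WT H3K4me3 list held 14237 peaks, the Cxxc1-deficient H3K4me3 list 2979 and the Cxxc1 list 4352. Both H3K4me3 lists were of nearly the same depth, since 1 tag was worth 0.1056 to 0.1062 RPM in each, and 0.1094 to 0.1099 RPM in the Cxxc1 list, as inferred from the steps of the RPM values. Of 13 marker genes of DP thymocytes, 6 had a WT H3K4me3 promoter (Cd8a, Cd8b1, Cd3e, Lck, Tcf7 and Bcl11b, 19.8 RPM in sum), and 3 had one in Cxxc1-deficient cells. The other markers (Cd4, Rag1, Rag2, Dntt, Cd3d, Cd3g and Ets1) had no listed WT promoter window, so an unlisted marker says little about cell type. The 5 B-cell markers were at 0.4 RPM in sum, from Cd79b alone, and no myeloid (0 of 5) or thymic epithelial (0 of 5) marker was listed. In bulk chromatin, a mark on fewer cells and less of the mark per cell cannot be told apart.

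The sequences that Cxxc1 windows covered at these genes, and the start sites that did or did not carry H3K4me3, are shown first because Cxxc1 is a CpG-binding protein. Each is 200 bases, mm9, written 5′ to 3′ on the strand of the gene, with every CG in capitals, and none overlaps an annotated exon. The first 3 are the strongest such Cxxc1 windows at 3 of the 4 promoters with one. They held 4, 8 and 4 CG.
Setd4, chr16:93604401-93604600, minus strand: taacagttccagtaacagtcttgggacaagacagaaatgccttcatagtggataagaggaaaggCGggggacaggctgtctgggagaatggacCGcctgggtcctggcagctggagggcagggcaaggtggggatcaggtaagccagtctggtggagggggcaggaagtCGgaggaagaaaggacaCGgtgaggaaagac
Kdm1a, chr4:136157801-136158000, minus strand: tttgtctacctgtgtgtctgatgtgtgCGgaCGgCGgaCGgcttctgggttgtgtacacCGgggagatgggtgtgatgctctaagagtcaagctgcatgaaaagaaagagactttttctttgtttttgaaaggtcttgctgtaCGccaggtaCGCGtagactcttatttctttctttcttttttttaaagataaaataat
Kdm4d, chr9:14304001-14304200, minus strand: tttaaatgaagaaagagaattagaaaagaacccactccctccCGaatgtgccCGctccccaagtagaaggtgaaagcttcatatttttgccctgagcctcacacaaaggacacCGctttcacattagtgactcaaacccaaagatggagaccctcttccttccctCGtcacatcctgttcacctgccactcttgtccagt
The next pair are the strongest Cxxc1 windows in the bodies of the 2 members with the most Cxxc1 RPM there. They lie 40480 and 61574 bases downstream of the nearest TSS and held 2 and 0 CG.
Arid1b, chr17:5036801-5037000, plus strand: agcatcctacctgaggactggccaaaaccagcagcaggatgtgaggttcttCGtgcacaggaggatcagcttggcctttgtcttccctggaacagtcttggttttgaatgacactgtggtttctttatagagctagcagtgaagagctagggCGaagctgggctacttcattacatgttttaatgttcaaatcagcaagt
Arid5b, chr10:67679801-67680000, minus strand: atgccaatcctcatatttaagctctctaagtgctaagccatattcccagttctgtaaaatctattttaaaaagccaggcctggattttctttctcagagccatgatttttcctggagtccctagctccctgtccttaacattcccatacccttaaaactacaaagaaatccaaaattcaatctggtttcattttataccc
The last 3 lie directly before a TSS, and held 25, 23 and 26 CG. Arid1a was listed in both genotypes near this start, Smarca2 in WT cells only, and Smarca5 in no list.
Arid1a, chr4:133309527-133309726, minus strand: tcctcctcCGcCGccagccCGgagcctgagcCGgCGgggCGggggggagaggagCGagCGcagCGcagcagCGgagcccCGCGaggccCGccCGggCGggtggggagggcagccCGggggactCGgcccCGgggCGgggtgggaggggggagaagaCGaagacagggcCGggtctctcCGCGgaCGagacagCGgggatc
Smarca2, chr19:26679450-26679649, plus strand: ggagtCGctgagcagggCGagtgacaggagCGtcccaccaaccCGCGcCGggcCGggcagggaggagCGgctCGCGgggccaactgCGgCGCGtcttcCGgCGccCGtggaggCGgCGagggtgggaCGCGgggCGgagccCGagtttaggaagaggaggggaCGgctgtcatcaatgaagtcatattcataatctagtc
Smarca5, chr8:83263397-83263596, minus strand: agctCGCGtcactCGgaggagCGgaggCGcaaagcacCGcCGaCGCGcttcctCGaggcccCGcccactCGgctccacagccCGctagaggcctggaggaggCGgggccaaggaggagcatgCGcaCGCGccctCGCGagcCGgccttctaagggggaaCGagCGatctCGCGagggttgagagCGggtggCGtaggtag
The 3 stretches before a start are alike in CG number although their listing differed, and the Cxxc1 windows held fewer CG than any of them. These 3 are chosen examples rich in CG, and the Arid1a start is not its most upstream one. In the 200 bp before the most upstream TSS the median was 15 CG over the members and 8 over all genes. Over all listed windows at these genes the median was 12 CG per 200 bp for WT H3K4me3 at promoters (302 windows), 3 for WT H3K4me3 in bodies (393 windows), 6.5 for Cxxc1 at promoters (8 windows) and 2 for Cxxc1 in bodies (118 windows, 19 of them without a CG).

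In WT cells H3K4me3 was listed at the promoters of 39 of the 64 records (60.9%, Wilson interval 48.7 to 71.9%), against 32.5% of all autosomal protein-coding records. In Cxxc1-deficient cells it was listed at 9 (14.1%, 7.58 to 24.6%), against 6.10% of all. Of the 39 WT-marked members, 8 were also listed in Cxxc1-deficient cells (20.5%, 10.8 to 35.5%), against 12.8% of all WT-marked genes, a value inside the members' interval. The 95% intervals cover counting error over genes only, and genes are not replicates of a genotype. The median WT level of the 39 was 2.70 RPM (0.7 to 8.9), against 2.40 RPM over all WT-marked genes, and the median Cxxc1-deficient level of the 9 was 1.8 RPM (0.7 to 2.1), against 1.8 RPM. The members thus differed from all genes in how many were listed in WT cells, and much less in the level of those that were. This share was not particular to them. Among CpG-rich promoters, as defined below, it was 61.9% of members against 56.9% of all genes, and 61.5% of other chromatin genes were listed.

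**Figure D1:**
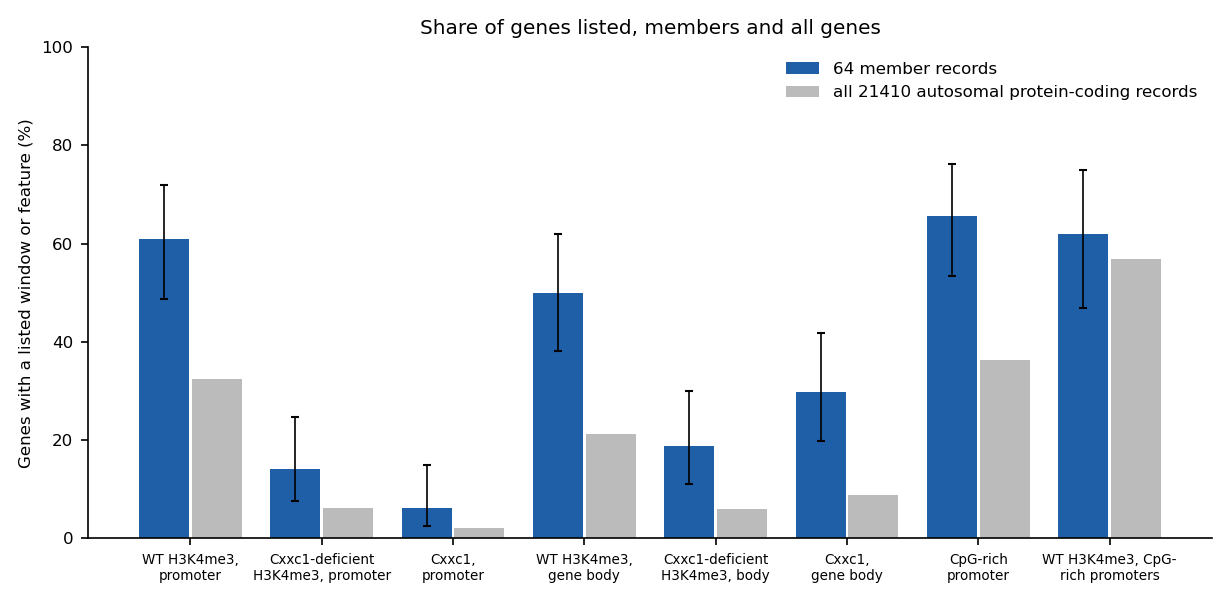
Share of gene records (%, vertical axis) with a listed window or feature, for the members (blue, with 95% Wilson intervals) and for all autosomal protein-coding records (grey). The blue bars stand above the grey ones in each pair. The heights are close for WT H3K4me3 among CpG-rich promoters, at 61.9% and 56.9%. For Cxxc1 at promoters both bars are low, at 6.25% and 2.03%, and the grey value lies below the members' interval of 2.46 to 15.0%.

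Of the 7 Setd genes 2 were marked in WT cells, a share near the 32.5% of all records. Setd3 (an actin histidine methyltransferase) held 4.7 RPM in WT cells against 2.0 RPM in Cxxc1-deficient cells, and Setd8 (which monomethylates H4K20) 3.1 and 1.8 RPM. The other 5 had no WT promoter mark: Setd2 (which trimethylates H3K36), Setd4, Setd5, Setd6 and Setd7. Setd5 was the only member with a promoter mark in Cxxc1-deficient cells alone, at 2.1 RPM in 7 windows, part of a peak of 2.7 RPM centred at -0.36 kb. At 1 of 64 (1.56%), that state was no more frequent than among all genes (1.96%).

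The demethylase genes were marked almost throughout. Of 11 Kdm genes, 10 had a WT promoter mark, within a narrow range of 1.6 to 2.8 RPM. The share was 32.5% of all records, and 56.9% of those with a CpG-rich promoter. At Kdm1b, Kdm4d and Kdm5a the windows also lay near another gene's start. The Kdm4c peak lay at an inner start, 9.60 kb from the most upstream TSS. Kdm5b, an H3K4 demethylase, had no window at promoter or body in any list, with a WT H3K4me3 peak of 2.9 RPM centred at -3.85 kb. Its relative Kdm5a held 2.0 RPM in WT cells and none was listed in Cxxc1-deficient cells, and the same was true of the H3K4 mono- and dimethyl demethylases Kdm1a (2.4 RPM) and Kdm1b (2.0 RPM). The 3 Kdm promoters listed in both genotypes were those of Kdm4a (2.8 and 2.0 RPM), Kdm4c (2.5 and 1.5 RPM), which act on H3K9 and H3K36, and of the H3K27 demethylase Kdm6b (1.9 and 1.2 RPM). Kdm3a (2.5 RPM), Kdm3b (2.6 RPM), Kdm4b (2.8 RPM) and Kdm4d (1.6 RPM) were listed in WT cells only.

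Among the deacetylases, the 2 highest promoters were of class IIa. Hdac7 (ENSMUSG00000022475.11, chromosome 15, 97623095 to 97674933) had the highest promoter level of all members, at 8.9 RPM in WT cells against 1.9 RPM in Cxxc1-deficient cells. Its WT level is the sum over 23 windows near 10 annotated start sites, and its most upstream promoter alone carried a peak of 2.4 RPM in WT cells against 1.9 RPM in Cxxc1-deficient cells. Hdac5 (ENSMUSG00000008855.10) followed with 7.4 RPM over 7 start sites, with nothing listed in Cxxc1-deficient cells. The other 2 class IIa genes, Hdac4 and Hdac9, had no promoter mark. Of the class I enzymes Hdac2 (3.1 RPM) and Hdac3 (2.1 RPM) were marked in WT cells and Hdac1 was not, Hdac10 held 2.3 RPM, and Hdac11 was unlisted at its promoter. Among the 3 Kat genes, Kat5 (Tip60) held 1.3 RPM in WT cells, and Kat2a (Gcn5) and Kat2b (Pcaf) had no promoter mark.

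Of 12 Smarc promoters 7 were listed in WT cells and none in Cxxc1-deficient cells. The WT share was 32.5% of all records, and 56.9% of those with a CpG-rich promoter. With 12.8% of all WT-marked promoters listed in both genotypes, 0 of 7 does not set the family apart. Smarcd2, an accessory BAF subunit, held 7.1 RPM, and the alternative BAF ATPases Smarca2 (BRM) and Smarca4 (BRG1) 7.0 and 3.6 RPM. Smarcb1 and Smarce1, both BAF core subunits, held 2.7 RPM each, the annealing helicase Smarcal1 1.8 RPM and Smarcd1 1.6 RPM. Unlisted were Smarca5 (the ISWI ATPase SNF2H), Smarcad1, Smarcc1, Smarcc2 and Smarcd3, which had no window in any list at promoter or body.

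Of the Chd genes, 8 of 11 were marked in WT cells, Chdh included. For this count and the Arid count below, the share was 32.5% of all records, and 56.9% of those with a CpG-rich promoter. Chd1, a remodeller that binds H3K4me3, held 3.5 RPM, the highest of the family. Chd4 and Chd6 held 2.8 RPM each, Chd3 and Chd7 2.2 RPM each, Chd5 1.9 RPM and Chd1l 1.7 RPM, none of them listed at its promoter in Cxxc1-deficient cells. Chd2, Chd8 and Chd9 had no promoter mark. Of the 10 Arid genes, 6 were marked in WT cells: the BAF subunits Arid1a (5.9 RPM, and 1.5 RPM in Cxxc1-deficient cells) and Arid1b (3.5 RPM), the PBAF subunit Arid2 (4.6 RPM), Arid3b (3.4 RPM), Arid4b (3.1 RPM) and Arid3c (1.5 RPM). Arid3a, Arid4a, Arid5a and Arid5b had none.

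**Figure D2:**
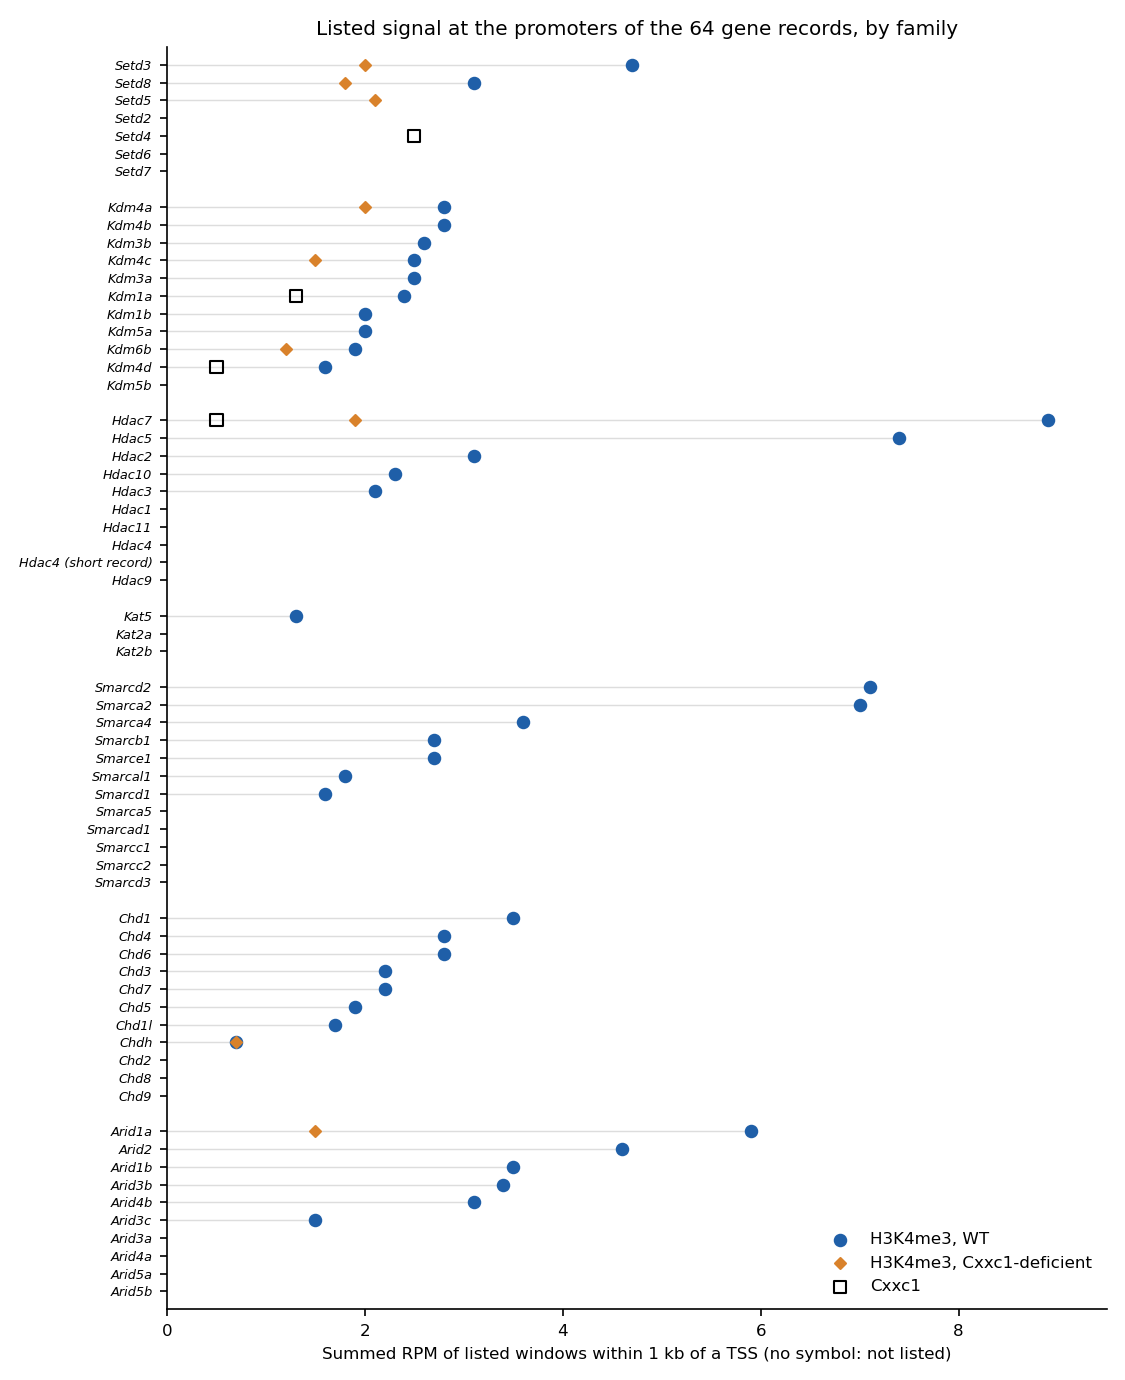
Summed RPM of the listed windows within 1 kb of a TSS (horizontal axis) for each record, grouped by family, in WT H3K4me3 (blue circles), Cxxc1-deficient H3K4me3 (orange diamonds) and Cxxc1 (open squares). Hdac7, Hdac5, Smarcd2 and Smarca2 lie at 7.0 RPM or above in WT cells, and no Cxxc1-deficient value passes 2.1 RPM.

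At 8 of the 39 WT-marked members at least some promoter windows also lay within 1 kb of the start of another protein-coding gene. The signal in those windows cannot be given to the member alone. These pairs were Kdm1b with Tpmt, Kdm4d with Cwc15, Kdm5a with Ccdc77, Hdac3 with Rell2, Hdac7 with Gm17532, Smarcd1 with Gm17349, Chdh with Il17rb and Arid4b with Ggps1. Without such windows 33 members kept a WT promoter mark. The 8 promoters listed in both genotypes, those of Hdac7 and Chdh among them, stayed listed in both. Members then carried the WT mark 1.92 times as often as other genes, against 1.88 times with all windows. The share of such promoters over all genes was not counted.

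The members' promoters were rich in CpG. A promoter was called CpG-rich where the 500 bp on each side of the most upstream TSS had a GC content of 55% or more and held CpG at 0.65 times the expected number or more (the observed to expected ratio). This held for 42 of 64 records (65.6%, 53.4 to 76.1%), against 36.2% of all, with a median ratio of 0.78 against 0.56. Among CpG-rich promoters, 26 of 42 members carried WT H3K4me3 (61.9%, 46.8 to 75%), against 56.9% of all genes with such a promoter, which lies inside the members' interval. Among the other promoters it was 13 of 22 (59.1%, 38.7 to 76.7%), against 18.6%. The members have more annotated start sites than other genes (median 3 against 1), each of which adds sequence to the promoter, and the part of this in the latter difference was not tested. Across all genes the unmarked promoters were poor in CpG (23.1% CpG-rich, median ratio 0.37). The unmarked members were not: 16 of 25 were CpG-rich (64%, median ratio 0.77), much as among the marked members (66.7%, 0.78). Smarcc2, Smarca5 and Setd2, with 134, 122 and 120 CpG around the start, had no listed H3K4me3, whereas Kdm6b and Hdac7, with 12 and 19 around the most upstream start, were listed there in both genotypes.

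Where a promoter was listed in both genotypes, the tags in its listed windows were compared as a ratio with its exact 95% interval, which covers counting error only. The 8 ratios of WT to Cxxc1-deficient tags had a median of 1.69, and 3 of the intervals lay above 1. Hdac7 held 88 tags in WT and 19 in Cxxc1-deficient cells, a ratio of 4.63 (2.80 to 8.06). Arid1a held 59 and 15 tags (3.93, 2.20 to 7.47), and Setd3 47 and 20 (2.35, 1.37 to 4.19). The intervals of Setd8 (1.72, 0.93 to 3.27), Kdm4c (1.67, 0.85 to 3.40), Kdm6b (1.58, 0.73 to 3.58), Kdm4a (1.40, 0.76 to 2.62) and Chdh (1.00, 0.30 to 3.34) all included 1. All 8 ratios compare sums over windows called separately in each library, where an unlisted window adds no tags. Arid1a and Chdh shared no promoter window, so their ratios do not compare the same places.

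Over the windows that both genotypes shared, the levels lay closer together in sum than over all listed windows. Windows listed in both genotypes occurred at 6 of the 8 promoters, 20 windows in all, which summed to 8.6 RPM in WT cells against 7.8 RPM in Cxxc1-deficient cells. At Setd3 the 6 shared windows held 2.3 and 2.0 RPM, at Kdm4a the 4 shared windows 2.1 and 2.0 RPM, and at Hdac7 the 4 shared windows 1.5 and 1.4 RPM. At Setd8 the 2 shared windows held 1.0 and 0.7 RPM, and at Kdm4c 1.0 and 0.5 RPM. At Kdm6b the 2 shared windows held 0.7 RPM in WT cells against 1.2 RPM in Cxxc1-deficient cells. Such windows had to pass the calling in both libraries, and the further WT tags lay in windows not listed in Cxxc1-deficient cells.

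At Arid1a and Chdh no window was shared. The Cxxc1-deficient peak of Arid1a (22 tags, chromosome 4, 133309201 to 133311000) began at the base after one WT peak (133307801 to 133309200, 32 tags) and ended short of another (133311601 to 133314200, 44 tags). It spanned the CG-rich stretch of Arid1a printed above, where no WT window was listed. At Chdh the Cxxc1-deficient peak lay 1.09 kb from the most upstream TSS and the WT peak with promoter windows at 25.79 kb, near another start site.

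**Figure D3:**
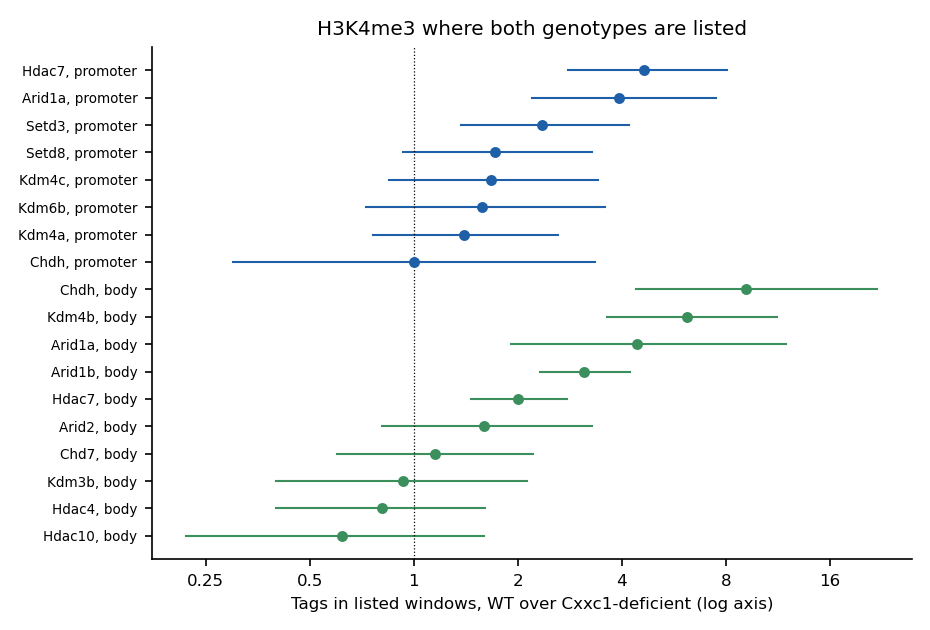
Ratio of tags in listed windows, WT over Cxxc1-deficient (horizontal log axis), with exact 95% counting intervals, for the 8 promoters (blue) and 10 gene bodies (green) listed in both genotypes. Hdac7, Arid1a and Setd3 lie above 1 among promoters, and Chdh, Kdm4b, Arid1a, Arid1b and Hdac7 among bodies. The windows were called separately in each genotype.

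At some members the listed mark summed to more over the gene body than over the promoter, which is much shorter. WT H3K4me3 was listed in the bodies of 32 records (50%, 38.1 to 61.9%), against 21.3% of all. Of the 32, 26 also had a promoter mark, and how often this held over all genes was not counted. Arid1b (ENSMUSG00000069729.6, chromosome 17, 4994332 to 5347656) held 19.0 RPM in 54 windows of its body, over 5 times its promoter level of 3.5 RPM in 10 windows. The gene is 353.3 kb long, and these levels are sums and not densities. Hdac7 held 12 RPM, Kdm6b 10.5 RPM and Kdm4b 9.9 RPM, each above its own promoter level.

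The other 11 of the 15 bodies above 3 RPM were Chd5 (7.7 RPM), Chdh (7.3 RPM), Hdac5 (7.0 RPM), Smarca2 (5.9 RPM), Arid3a (5.3 RPM), Arid3b (5.0 RPM), Setd4 (5.0 RPM), Kat5 (3.7 RPM), Chd9 (3.4 RPM), Arid1a (3.2 RPM) and Chd3 (3.1 RPM). Setd4, Arid3a and Chd9 had this body mark without a promoter mark. Some body windows lay within 1 kb of the start of another protein-coding gene. Without such windows 30 bodies were listed in WT cells in place of 32. The body of Setd4 held peaks of 2.3 and 2.7 RPM at 13.46 and 18.16 kb from the most upstream TSS, toward the 3′ end of a gene of 20.6 kb.

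In Cxxc1-deficient cells 12 bodies were listed (18.8%, 11.1 to 30%), against 5.89% of all. Of these, 10 were listed in WT cells too, and how often this held over all genes was not counted. Over those 10 the median tag ratio of WT to Cxxc1-deficient cells was 1.8, and 5 intervals lay above 1: Chdh (9.12, 4.39 to 21.93), Kdm4b (6.19, 3.63 to 11.25), Arid1a (4.43, 1.91 to 11.92), Arid1b (3.11, 2.32 to 4.23) and Hdac7 (2.0, 1.46 to 2.77). The ratios of Arid2 (1.60), Chd7 (1.15), Kdm3b (0.93), Hdac4 (0.81) and Hdac10 (0.62) had intervals that included 1. These ratios compare sums over windows called separately in each library, mostly at different places. Chdh, Arid1a, Arid1b and Hdac7 shared no body window between the genotypes, and the only 3 shared body windows, at Kdm4b and Hdac10, held 0.9 RPM in WT cells against 1.1 RPM in Cxxc1-deficient cells. Kat2b (1.9 RPM) and Kdm4c (0.5 RPM) had a body mark in Cxxc1-deficient cells only.

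The same gene was often listed in both genotypes at different places. Of 22 Cxxc1-deficient peaks at the members' promoters or bodies, 8 overlapped a WT peak (36.4%), against 44.1% over all genes. At promoters 6 of 9 did (66.7%, against 62.5% over all genes), and in bodies away from promoters 2 of 13 (15.4%, against 24.1%), so that promoter peaks overlapped more often than body peaks over all genes too. Hdac7 held 3 Cxxc1-deficient body peaks of 2.1, 2.0 and 1.9 RPM and Arid1b 3 of 2.4, 1.9 and 1.8 RPM, and none of these 6 overlapped a WT peak. In the other direction, 8 of 95 WT peaks at the members overlapped a Cxxc1-deficient one (8.42%), against 8.51% over all genes, a nearly equal share.

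**Figure D4:**
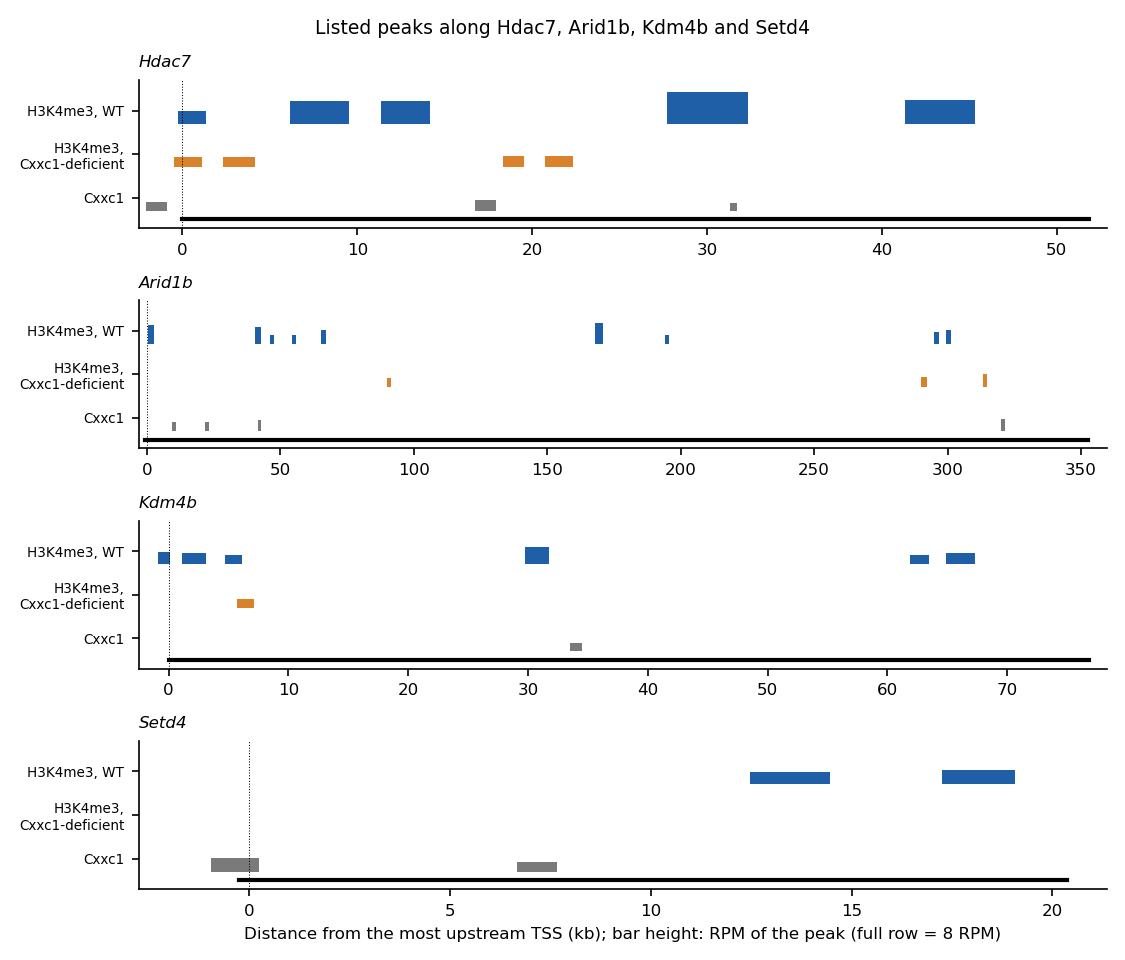
Listed peaks along Hdac7, Arid1b, Kdm4b and Setd4, by distance from the most upstream TSS (kb, horizontal axis), with the gene as a black line and bar height for the RPM of a peak. Narrow peaks are drawn wider than they are. The WT peaks of Hdac7 and Arid1b spread over the gene, and the Cxxc1-deficient peaks in their bodies do not overlap them.

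Cxxc1 itself was seldom listed at the members' promoters and often in their bodies. It was listed within 1 kb of a TSS at 4 of 64 records (6.25%, 2.46 to 15.0%), against 2.03% of all. At Setd4 (ENSMUSG00000022948.8, chromosome 16, 93583702 to 93604308) the promoter windows held 2.5 RPM in a peak of 24 tags centred at -0.34 kb, and no H3K4me3 was listed there in either genotype. At Kdm1a the 1.3 RPM (12 tags) lay inside the WT H3K4me3 peak of 2.4 RPM. Kdm4d and Hdac7 were reached by 1 window each of 0.5 RPM, the edges of peaks centred at 0.94 and -1.47 kb, and the Kdm4d promoter is shared with Cwc15.

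In gene bodies Cxxc1 was listed at 19 of 64 records (29.7%, 19.9 to 41.8%), against 8.76% of all. With promoters and the 10 kb upstream included it was 20 (31.2%), against 11.6%. Without windows within 1 kb of the start of another protein-coding gene, Cxxc1 was listed in 18 bodies. Arid1b held the most, 7.7 RPM in 21 windows and 4 peaks, of which 1, at 42.16 kb, overlapped a WT H3K4me3 peak. Arid5b, a DNA-binding partner of a histone demethylase, held 5.3 RPM in 2 peaks and Hdac7 3.3 RPM in 2 body peaks.

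The other bodies held between 0.8 and 2.9 RPM. Among the methyltransferase and demethylase genes these were Setd2 (2.9 RPM), Kdm3a (2.5 RPM), Kdm3b (2.2 RPM), Setd4 (1.7 RPM), Setd7 (1.6 RPM), Kdm4b (1.5 RPM) and Kdm4d (0.8 RPM). Among the deacetylase genes Hdac2 held 2.0 RPM, and Hdac1, Hdac4 and Hdac9 1.7 RPM each. Among the remodeller and Arid genes Chd9 held 2.2 RPM, Chd5 1.7 RPM, and Smarcal1, Smarcd1 and Arid3a 1.6 RPM each. No Kat gene was listed, so the bound members came from 6 of the 7 families.

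The members are long, with a median of 46.0 kb against 15.5 kb, and longer genes have more sequence in which a window can fall. Among records of at least 50 kb, 10 of 29 members had Cxxc1 in the body (34.5%, 19.9 to 52.7%), against 25.5% of all such genes, which lies inside the members' interval. The gap was widest from 20 to 50 kb, where 8 of 22 members were listed (36.4%), against 9.38% of all. It was 5 of 15 from 50 to 100 kb (33.3% against 17.0%), and 5 of 14 from 100 kb on (35.7% against 34.3%). Under 20 kb 1 of 13 was listed (7.69% against 2.11%). WT H3K4me3 in the body did not follow length in this way, with shares of members of 46.2%, 45.5%, 60.0% and 50% from the shortest class to the longest, against 15.4%, 26.0%, 29.4% and 35.0%.

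**Figure D5:**
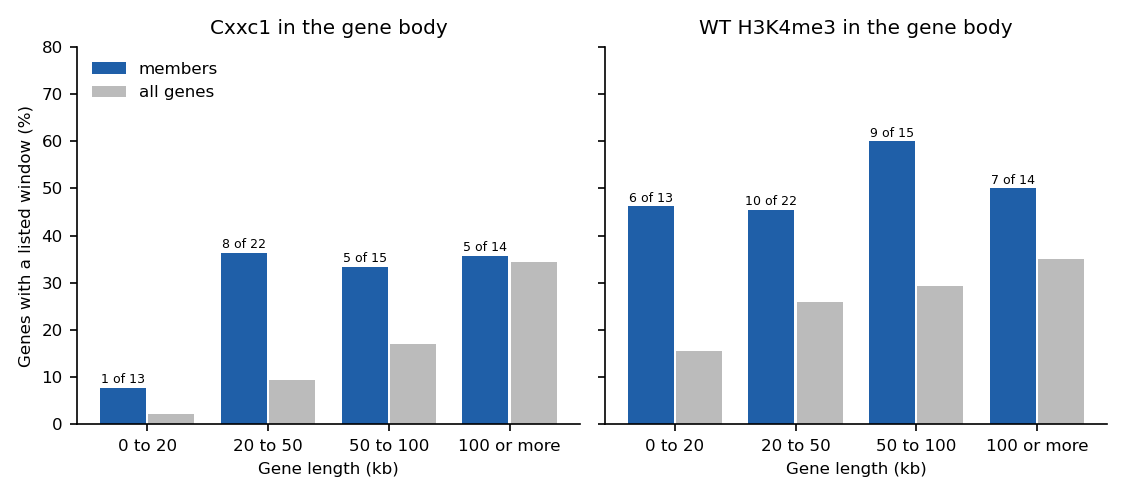
Share of genes (%, vertical axis) with a listed window in the gene body by gene length (kb), for Cxxc1 (left) and WT H3K4me3 (right), in members (blue, counts above the bars) and all autosomal protein-coding records (grey). For Cxxc1 the bars meet at 100 kb or more, at 35.7% and 34.3%.

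At promoters and in bodies together there were 28 Cxxc1 peaks, of 1.3 to 3.6 RPM (median 1.70 RPM, 12 to 36 tags). The midpoints of 24 lay in introns, 1 in an exon and 3 outside the gene. WT H3K4me3 overlapped 5 of the 28 (17.9%), those at Kdm1a, Chd5, Arid3a, Hdac7 and Arid1b, against 8.41% of all Cxxc1 peaks at genes. Cxxc1-deficient H3K4me3 overlapped none of them, against 1.53% over all genes, a share too small for 28 peaks to set the members apart. Hence most Cxxc1 listed at these genes lay in introns away from listed H3K4me3, whether or not the promoter of the gene was marked. This is not particular to the members. Over all genes most Cxxc1 peaks also lay away from WT H3K4me3. The study, too, placed more Cxxc1 peaks in introns than in promoters or exons, and the share of midpoints in introns over all genes was not counted here.

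Members with Cxxc1 at promoter or body carried the WT promoter mark in 11 of 20 cases (55%), and those without it in 28 of 44 (63.6%), whereas over all genes the share was 43.7% with Cxxc1 and 31.2% without. The members' difference was not tested. Of the 11, only Hdac7 was also listed at its promoter in Cxxc1-deficient cells (9.09%), and of the 28 it was 7 (25.0%). Over all genes the latter shares were 13.7% and 12.6%, and the members' difference rests on 1 gene against 7 and was not tested.

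Other chromatin genes, from 6 lists of 120 symbols of which 117 were annotated, gave much the same promoter shares as the members. They were marked in WT cells at 72 promoters (61.5%) and in Cxxc1-deficient cells at 16 (13.7%), and Cxxc1 lay at 5 promoters (4.27%). Polycomb genes were marked most often in WT cells (19 of 24), and BAF partners without a Smarc or Arid name least (5 of 13). Cxxc1 lay in the bodies of 18 of the 117 (15.4%), against 29.7% of the members and 8.76% of all records. The deacetylase partners of the NuRD, Sin3, NCoR and CoREST complexes (6 of 22) and the INO80, SWR1 and ISWI genes (4 of 17) had the largest shares.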

How the data were processed

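ChIP-seq of Cxxc1 and H3K4me3 was performed on DP thymocytes, with 5 samples and 1 library per group. Per the study's methods, uniquely mapped 50-bp reads on mm9 went into SICER 1.1 (reads from CASAVA 1.8.2), with input and Cxxc1-deficient ChIP DNA as controls. The aligner, the handling of duplicates and which control was used for H3K4me3 are not given in the sources used here. The authors deposited 3 lists of 200-bp windows in called regions, with RPM values at 1 decimal. The Cxxc1 list names no genotype, and its place with WT cells rests on the study's methods. The other 2 samples, Cxxc1 ChIP from deficient cells and WT input, were not analysed here.

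Windows were assigned to protein-coding genes of GENCODE vM1 (NCBIM37, the same assembly as mm9) by any overlap with 1 kb on each side of a TSS, or with the rest of the gene. Peaks were runs of windows with gaps of no more than 2 missing windows. The value of 1 tag was inferred from the RPM steps below 2 RPM (0.1056 to 0.1062 RPM for H3K4me3, 0.1094 to 0.1099 RPM for Cxxc1), and the lowest window held 2 tags. Intervals and tag numbers cover counting error only. Python 3.11.15, numpy 2.4.6, scipy 1.17.1 and matplotlib 3.10.9 were used, and the functions were tested on simulated data. Named were all members with Cxxc1, with the mark in both or only in Cxxc1-deficient cells, the 10 highest WT promoters and WT bodies above 3 RPM, and the rest by family. The members and lists were chosen with earlier results of these data known. Alternatives were other promoter widths, start sites, strengths and gene sets. The sequence of 1 Cxxc1 window is not reported here.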

Additional observations from a re-analysis of the deposited data

How the results depend on the processing

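No paired analysis was possible because no group held more than 1 library. Of 89 values of 12 results under 11 alternatives, 78 stayed within 1.5 times the reported value. None of the 24 values of the 3 ratios of members to other genes fell below 1. With peaks of at least 2 RPM only, members with H3K4me3 at the promoter in both genotypes numbered 4 in place of 8, those with Cxxc1 at the promoter 1 in place of 4, in the body 6 in place of 19, and with 10 kb upstream 8 in place of 20, and Cxxc1-deficient H3K4me3 was in 7 bodies in place of 12. With the most upstream TSS only, 5 promoters were listed in both genotypes. Within 500 bp of a TSS, Cxxc1 was listed at 2 promoters. Among the 29 records of at least 50 kb, Cxxc1 was in 10 bodies and WT H3K4me3 in 16, and members had Cxxc1 in the body 1.35 times as often as other genes of that length, in place of 3.41 times. Of 2 alternatives chosen after seeing the data, adding genes under older symbols moved none of the 12 results past 1.5 times, and with CpG-rich promoters only, members carried the WT promoter mark 1.09 times as often as other genes, in place of 1.88 times. The lists hold called regions only, so a weak mark that was not called cannot be told from an absent one.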

Other observations

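The annotation carries 6 further genes of these families under older symbols, which the symbol rule left out. Their WT promoter H3K4me3 was 2.6 RPM at Myst3 (Kat6a), 4.0 RPM at Myst4 (Kat6b), 2.1 RPM at Myst2 (Kat7), 3.2 RPM at Jhdm1d (Kdm7a) and 2.6 RPM at Jmjd5 (Kdm8). Myst1 (Kat8) had none in WT cells and 1.3 RPM in Cxxc1-deficient cells. Upstream of the promoters, Arid3a had a Cxxc1 peak of 2.2 RPM at -5.89 kb inside a WT H3K4me3 peak of 3.5 RPM, although its own promoter was unlisted. Setd7, with no H3K4me3 at promoter or body, had upstream peaks in both genotypes, of 1.6 RPM at -4.70 kb in WT and 1.9 RPM at -6.30 kb in Cxxc1-deficient cells, which did not overlap.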
